A study of Mus musculus with 48 samples.

Results

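The 10 genes described here, Ctsk, Acp5, Mmp9, Oscar, Slc9b2, Tnfrsf11a, Calcr, Dcstamp, Ocstamp and Atp6v0d2, are those by which osteoclasts are commonly recognised, and they were taken by gene name from the 29801 genes of the whole tibia RNA sequencing. The genes were picked by name and not by a cut on their values, but with earlier results of these data known. All 10 were found. Osteoclasts are large multinucleated cells that form when precursors of the monocyte lineage fuse under the influence of macrophage colony-stimulating factor and of RANK ligand, which osteoblast-lineage, marrow and other cells make. A mature osteoclast seals off a patch of bone, pumps acid into it to dissolve the mineral, and releases proteases that digest the collagen. The balance of this resorption with bone formation by osteoblasts sets bone mass in the growing and the aging skeleton.

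RNA was measured in tibiae of 12 male C57Bl6J mice in 4 groups of 3: young mice under caloric restriction (CR), young mice fed ad libitum (AL), aged mice under CR, and aged mice fed AL. CR lasted 8 weeks, with intake lowered by 10% in the first week, 20% in the second and 40% from the third week on, and the CR feed was a version of the NIH-31 chow of the AL mice fortified with micronutrients, so less food and another feed cannot be told apart. At the start of CR the aged mice were 15 to 18 months old, and the young mice were 8 to 12 weeks old by the study's methods, with 10 weeks given in the design text. At tissue collection the methods put the aged mice at 17 to 20 months and the young mice at 16 to 20 weeks. Adherent muscle was removed and the rest of the bone, marrow included, was powdered, so each value is an average over all cells of the tibia, in which fewer cells of a type and less RNA per cell cannot be told apart. No mouse carried a transgene. Whether any of the sequenced bones had been cut, as the right tibiae of some mice of the study were, is not given by the labels or the methods. Levels are in FPKM, fragments per length of transcript and per number of mapped fragments, a unit that allows for gene length. The mice are called here by their group and number, which are 1, 2 and 3 for young CR, 9, 10 and 11 for young AL, 5, 6 and 7 for aged CR, and 13, 14 and 15 for aged AL.

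The authors had forced the 12 mice to the same distribution of values, and each mouse summed to between 636207 and 636212 FPKM. The sequencing depth behind a value is therefore unknown. Markers of osteoblasts and osteocytes, marrow blood cells, cartilage, adipocytes and residual muscle were all present, as whole bone would hold. Aged AL mouse 14 and aged CR mouse 5 stood apart from the rest in earlier results of these data, and values without them are given where they matter.

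All 10 genes were detected in every mouse, over a range of levels that spanned the highest resorption enzymes and the rare receptors. Acp5, which encodes tartrate-resistant acid phosphatase, the enzyme by which osteoclasts are stained, had the highest mean over the 12 mice at 290 FPKM. It was followed by Ctsk, which encodes the collagen-digesting protease cathepsin K, at 186 FPKM and by Mmp9, which encodes gelatinase B, at 168 FPKM. Acp5 was above Ctsk in 12 of 12 mice, whereas Ctsk was above Mmp9 in 8 of 12, so these neighbours in the order did not separate. Atp6v0d2, which encodes an osteoclast form of a subunit of the vacuolar proton pump, averaged 16.3 FPKM, and its range did not overlap those of Mmp9 above and Slc9b2 below it. Slc9b2, which encodes a sodium and proton antiporter, averaged 4.22 FPKM and was above Oscar, which encodes an immunoglobulin-like collagen receptor, in 12 of 12 mice. The remaining means were 2.40 FPKM for Oscar, 1.92 FPKM for the fusion gene Dcstamp, 1.26 FPKM for Tnfrsf11a, which encodes RANK, 0.656 FPKM for the fusion gene Ocstamp and 0.415 FPKM for Calcr, which encodes the calcitonin receptor. Neighbours among these had overlapping ranges. The genes are spread over chromosomes 1, 2, 3, 4, 6, 7, 9 and 15. In GENCODE on GRCm38, Slc9b2 runs from 135307700 to 135345387 on chromosome 3, Oscar from 3609813 to 3616157 on chromosome 7 and Calcr from 3685680 to 3764714 on chromosome 6, the last with the microRNA genes Mir653 and Mir489 inside it on the same strand.

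**Figure D1:**
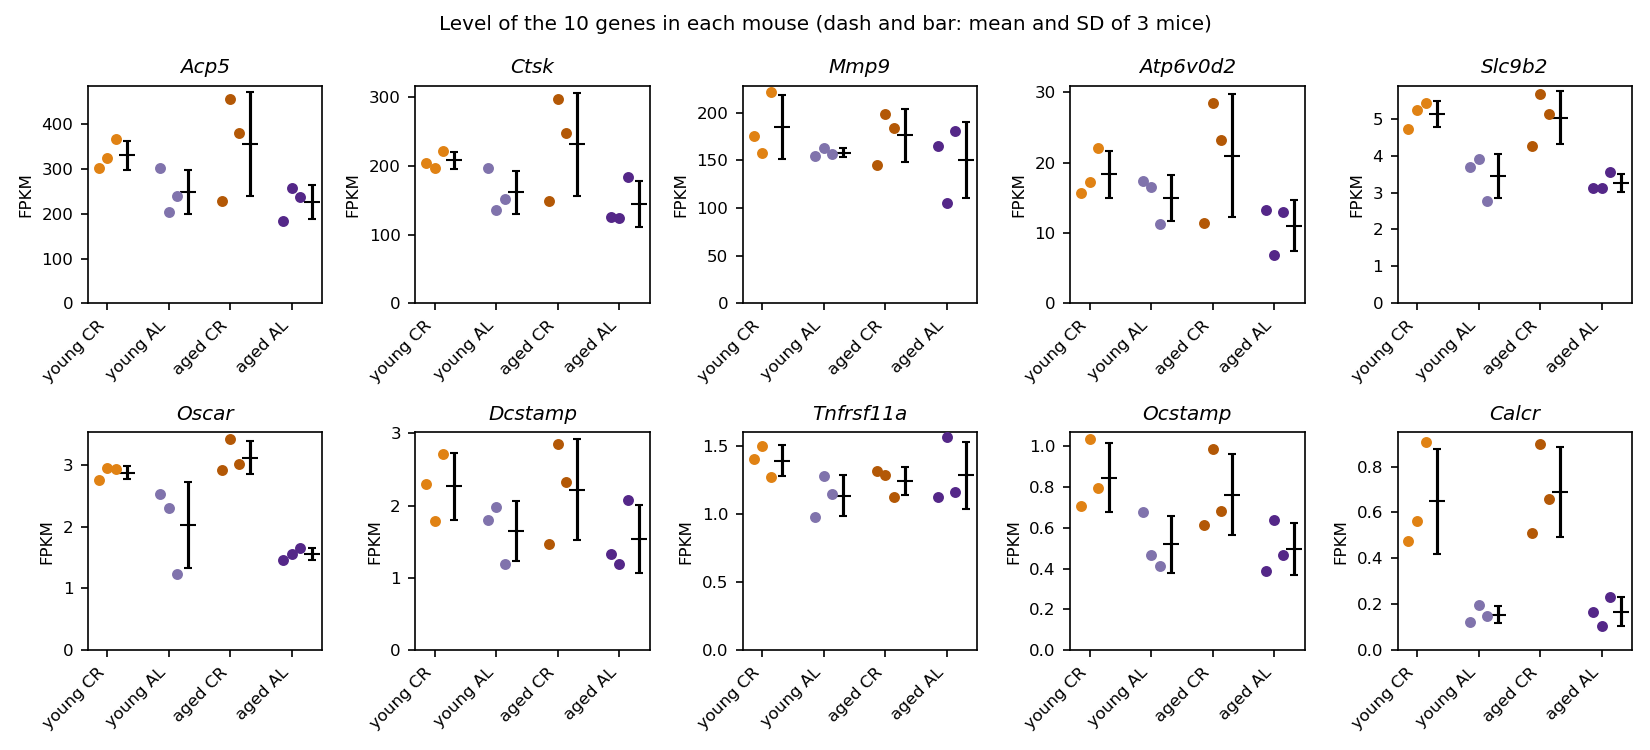
FPKM of each of the 10 genes (vertical axes, from 0) in each mouse (points) of the groups young CR, young AL, aged CR and aged AL, with the mean and SD of 3 mice beside them. The CR and AL points of Oscar, Slc9b2 and Calcr do not overlap at either age, and those of Mmp9 and Tnfrsf11a do.

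The question put to these genes was whether CR, age, or both together were accompanied by another level of osteoclast RNA in the tibia. Across the 10 genes, levels were higher in CR than in AL mice, with ratios of CR to AL means over both ages from 1.09 for Tnfrsf11a to 4.17 for Calcr, and the call after adjustment over all genes was reached by Slc9b2 alone. Levels in aged and young mice differed little. Differences were tested on the log2(FPKM + 1) scale with limma, a linear model with a shared estimate of the spread, and p-values were adjusted by the Benjamini-Hochberg method over the 13590 genes whose mean reached 1 FPKM. Differences on that scale understate the change of low genes. Of the 10 genes, 8 passed this filter, and each of those also averaged over 1 FPKM in the AL mice; Calcr and Ocstamp lay below it and were examined by an exact permutation of the diet labels within each age, in which 400 arrangements allow a smallest two-sided p of 0.005. Permutation p-values given here are not adjusted for the 20 such tests.

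Slc9b2 had the smallest p of the 8 genes that passed the filter. Its antiporter sits in the membranes of osteoclasts and its RNA is known to increase as mouse precursors differentiate. Young CR mice had 4.73, 5.22 and 5.41 FPKM, against 3.69, 3.90 and 2.78 FPKM in young AL mice. Aged CR mice had 4.26, 5.67 and 5.13 FPKM, against 3.12, 3.12 and 3.55 FPKM in aged AL mice. All 6 CR mice were above all 6 AL mice. Over both ages Slc9b2 rose by 0.48 on the log2 scale (SE 0.08, limma, adjusted p = 0.0499), and the exact permutation test gave the smallest p it allows, 0.005. The adjusted p was at the threshold, and with a pseudocount of 0.1 FPKM it was 0.0513, with size factors 0.0512 and without the filter 0.102. Leaving out 1 mouse at a time gave limma adjusted p-values of 0.0173 to 0.146, with 2 of 12 under 0.05. The permutation p was then between 0.005 and 0.01. With all CR mice above all AL mice it could not leave that range, so it adds no separate support.

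Oscar followed the same pattern at lower levels. Its receptor binds collagen and signals through the adaptor chain that Fcer1g encodes, as a costimulus for osteoclast formation. Young CR mice had 2.76, 2.96 and 2.93 FPKM, against 2.54, 2.31 and 1.23 FPKM in young AL mice. Aged CR mice had 2.93, 3.42 and 3.02 FPKM, against 1.46, 1.56 and 1.66 FPKM in aged AL mice. The groups did not overlap at either age, and the 6 CR mice lay in a narrow band above all AL mice. The difference over both ages was 0.54 on the log2 scale (SE 0.10, limma, adjusted p = 0.0589; exact permutation p = 0.005). The aged difference of 0.69 and the young difference of 0.39 were each short of the threshold by limma (adjusted p = 0.305 and 0.383), and their own difference of 0.30 was as well (SE 0.21, adjusted p = 0.999).

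Calcr had the widest separation in proportion. The calcitonin receptor is the receptor through which calcitonin halts resorption, and in mice it marks differentiated osteoclasts. Young CR mice had 0.475, 0.562 and 0.909 FPKM, against 0.120, 0.195 and 0.148 FPKM in young AL mice. Aged CR mice had 0.510, 0.899 and 0.659 FPKM, against 0.166, 0.104 and 0.229 FPKM in aged AL mice. Every CR mouse was above every AL mouse, with a ratio of means of 4.20 in young and 4.14 in aged mice (exact permutation p = 0.005). In a fit with no filter on low values the difference over both ages was 0.52 on the log2 scale, with an adjusted p of 0.0681 by limma. The number of fragments behind such low levels is unknown. Among the 3581 genes with a mean of 0.2 to 1 FPKM, 27 (0.754%) had all CR mice above all AL mice, and 7 of these, Calcr included, had a ratio of means at least as large.

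Promoters are shown for the 3 genes whose CR and AL mice did not overlap at either age. Oscar and Calcr were added to Slc9b2, which the naming rule gave, after their values were seen. The sequences are from RefSeq on GRCm38.p6, 5′ to 3′ on the gene's strand, and cover 250 bases before and 50 bases after an annotated start. Capitals mark matches, on either strand, to GGAAA (the core bound by NFAT factors, among them the osteoclast factor NFATc1), TGANTCA (AP-1), GAGGAA (the core bound by PU.1) and CANNTG (the E-box, bound among others by MITF). The Slc9b2 promoter lies at chr3:135307450-135307749 on the plus strand and the Oscar promoter at chr7:3616108-3616407 on the minus strand. Calcr has 2 annotated starts, with promoters at chr6:3764664-3764963 and chr6:3763574-3763873 on the minus strand, and the data do not say which was in use.
Slc9b2: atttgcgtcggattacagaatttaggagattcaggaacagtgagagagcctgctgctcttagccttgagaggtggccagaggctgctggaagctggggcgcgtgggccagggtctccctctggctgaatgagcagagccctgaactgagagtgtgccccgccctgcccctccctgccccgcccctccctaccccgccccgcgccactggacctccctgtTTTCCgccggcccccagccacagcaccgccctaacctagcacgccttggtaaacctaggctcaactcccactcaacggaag
Oscar: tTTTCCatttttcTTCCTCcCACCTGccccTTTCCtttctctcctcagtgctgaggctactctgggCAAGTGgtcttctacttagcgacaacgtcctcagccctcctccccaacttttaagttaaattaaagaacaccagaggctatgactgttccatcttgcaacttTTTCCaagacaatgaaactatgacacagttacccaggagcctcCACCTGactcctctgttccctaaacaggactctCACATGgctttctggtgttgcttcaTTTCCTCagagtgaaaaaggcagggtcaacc
Calcr, upstream start: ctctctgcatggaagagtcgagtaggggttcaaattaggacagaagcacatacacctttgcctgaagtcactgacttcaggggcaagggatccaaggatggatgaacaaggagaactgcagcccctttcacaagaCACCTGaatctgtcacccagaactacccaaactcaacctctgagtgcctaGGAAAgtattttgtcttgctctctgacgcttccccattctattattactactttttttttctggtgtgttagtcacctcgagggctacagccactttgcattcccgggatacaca
Calcr, downstream start: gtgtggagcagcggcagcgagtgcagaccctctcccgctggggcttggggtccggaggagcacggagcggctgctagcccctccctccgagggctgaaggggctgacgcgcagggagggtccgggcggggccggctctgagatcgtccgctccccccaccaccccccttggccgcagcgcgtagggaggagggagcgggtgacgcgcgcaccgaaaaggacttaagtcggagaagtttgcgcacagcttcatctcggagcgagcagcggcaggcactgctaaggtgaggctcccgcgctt

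GGAAA was the 1 motif present in a window of each of the 3 genes, and it is common among all promoters. Slc9b2 had 1 GGAAA match and none of the other motifs. Oscar had 4 GGAAA, 2 GAGGAA and 4 CANNTG matches, and in 1 stretch GGAAA and GAGGAA overlapped. The upstream Calcr promoter had 1 GGAAA and 1 CANNTG match, and the downstream one had none. Of the 10 genes, 6 matched the RefSeq promoter table, with 9 promoters among them (Tnfrsf11a, Ctsk, Slc9b2, Calcr, Oscar and Acp5). GGAAA was present in 7 of the 9 and in 61.3% of all 32851 promoters of this length, CANNTG in 7 and in 72.3%, GAGGAA in 2 and in 28.3%, and TGANTCA in 0 and in 7.81%. A match of letters is a description of the sequence and not of binding.

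The genes for acid phosphatase and cathepsin K had the highest levels and moved as a pair. Ctsk was at 204, 197 and 221 FPKM in young CR mice, against 197, 136 and 152 FPKM in young AL mice. It was at 149, 296 and 248 FPKM in aged CR mice, against 125, 125 and 183 FPKM in aged AL mice. The young groups did not overlap, although by less than 1 FPKM between the nearest mice, and in the aged groups CR mouse 5 fell within the AL range. The difference over both ages was 0.51 on the log2 scale (SE 0.17, limma, adjusted p = 0.207; exact permutation p = 0.025). Ctsk is on chromosome 3 at 95499256 to 95509362 (GRCm38), with no annotated gene overlapping it.

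Acp5 was at 303, 323 and 365 FPKM in young CR mice, against 302, 205 and 239 FPKM in young AL mice. It was at 229, 456 and 380 FPKM in aged CR mice, against 183, 258 and 237 FPKM in aged AL mice. As for Ctsk, all young CR mice were above all young AL mice by a narrow margin, and aged CR mouse 5 was the exception among the aged. The difference over both ages was 0.51 (SE 0.16, limma, adjusted p = 0.196; exact permutation p = 0.03). Leaving out 1 mouse at a time gave limma adjusted p-values of 0.0381 to 0.369 for Ctsk and 0.0328 to 0.362 for Acp5. For each gene 1 of 12 was under 0.05, the fit without aged CR mouse 5. That mouse was the lowest CR mouse for both genes, so leaving it out widens the diet difference and is no separate support. A noncoding transcript, 6530413G14Rik, overlaps Acp5 on the opposite strand, and although the library kit keeps strand, whether the quantification used it is not given.

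Atp6v0d2, whose proton pump subunit also takes part in the fusion of mouse precursors, varied most among mice of 1 group. Young CR mice had 15.7, 17.3 and 22.1 FPKM, against 17.3, 16.5 and 11.3 FPKM in young AL mice. Aged CR mice had 11.4, 28.4 and 23.2 FPKM, against 13.3, 6.83 and 12.9 FPKM in aged AL mice. The groups overlapped at both ages. The difference over both ages of 0.56 on the log2 scale did not pass the test (SE 0.23, limma, adjusted p = 0.305; exact permutation p = 0.085). Within CR mice alone the aged values spanned 11.4 to 28.4 FPKM, more than the gap between the means of 19.66 FPKM in CR mice and 13.02 FPKM in AL mice.

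The fusion genes had low levels, and neither was called. Dcstamp and Ocstamp encode the multipass membrane proteins that precursors need to fuse into multinucleated cells. Dcstamp was at 2.30, 1.79 and 2.71 FPKM in young CR mice against 1.80, 1.98 and 1.19 FPKM in young AL mice, and at 1.47, 2.86 and 2.33 FPKM in aged CR mice against 1.33, 1.20 and 2.07 FPKM in aged AL mice. Its groups overlapped at both ages (0.32 on the log2 scale, SE 0.14, limma, adjusted p = 0.333; exact permutation p = 0.055). Ocstamp was at 0.709, 1.04 and 0.794 FPKM in young CR mice against 0.676, 0.465 and 0.414 FPKM in young AL mice, and at 0.613, 0.988 and 0.684 FPKM in aged CR mice against 0.388, 0.638 and 0.466 FPKM in aged AL mice. Its young groups did not overlap, with 0.709 against 0.676 FPKM in the nearest mice. Of the genes that passed the filter, 10.1% had all young CR mice above all young AL mice, and no such share was counted at the level of Ocstamp. In aged mice 1 CR mouse was below the highest AL mouse, and the ratio of means over both ages was 1.58 (exact permutation p = 0.01). The fit with no filter gave Ocstamp an adjusted p of 0.285 by limma.

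Tnfrsf11a and Mmp9 had the lowest ratios of CR to AL means over both ages, at 1.09 and 1.17. RANK, which Tnfrsf11a encodes, is the receptor for RANK ligand on precursors and osteoclasts, and is also made by other cells. Tnfrsf11a was at 1.40, 1.49 and 1.27 FPKM in young CR mice against 0.975, 1.27 and 1.15 FPKM in young AL mice, and at 1.32, 1.28 and 1.12 FPKM in aged CR mice against 1.12, 1.57 and 1.16 FPKM in aged AL mice. The highest and the lowest of all 12 values both belonged to AL mice. The difference was 0.07 on the log2 scale (SE 0.07, limma, adjusted p = 0.702; exact permutation p = 0.295), with values of 0.17 in young and -0.022 in aged mice. In aged mice its sign changed when mouse 14 and mouse 5 were left out.

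Mmp9 was at 175, 158 and 222 FPKM in young CR mice, against 155, 163 and 156 FPKM in young AL mice. It was at 146, 199 and 184 FPKM in aged CR mice, against 165, 105 and 181 FPKM in aged AL mice. The groups overlapped at both ages and the ratio of means was 1.17 at each (0.23 on the log2 scale over both ages, SE 0.14, limma, adjusted p = 0.483; exact permutation p = 0.165). Gelatinase B is made by osteoclasts and is also stored in the granules of neutrophils, which abound in marrow.

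**Figure D2:**
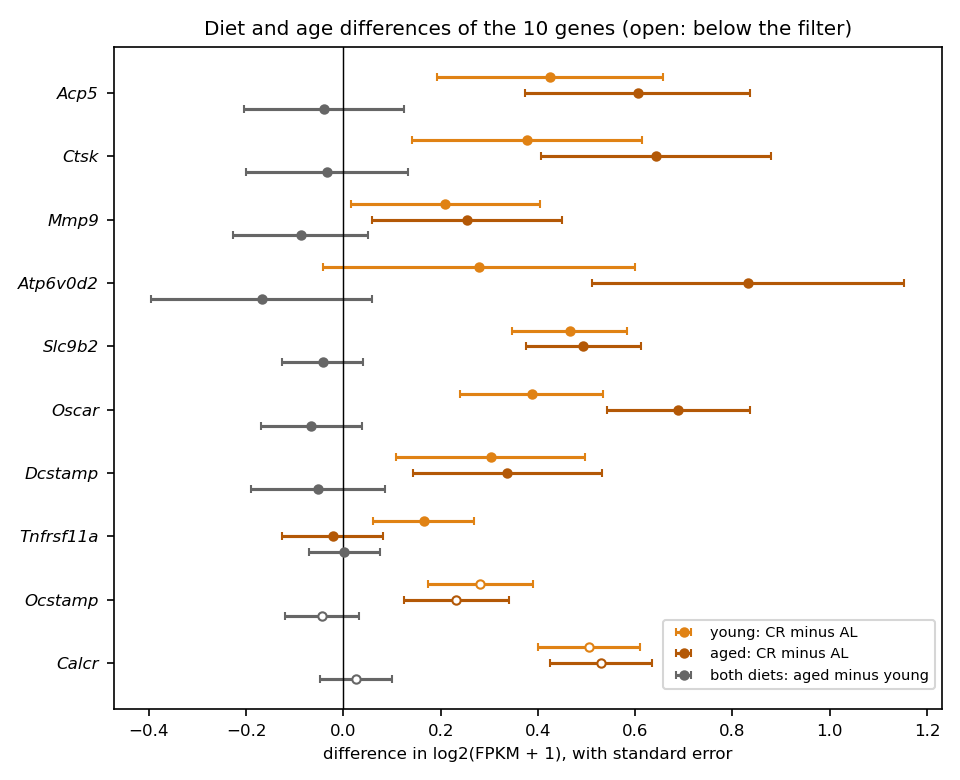
Difference in log2(FPKM + 1) with its standard error (horizontal axis) for each gene, as CR minus AL in young mice, CR minus AL in aged mice, and aged minus young over both diets, with open symbols for Calcr and Ocstamp, which were fitted without the filter. The diet differences lie right of 0 except that of Tnfrsf11a in aged mice, and the age differences lie between -0.17 and 0.03.

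Read against all genes, the counts were as follows. Over both ages, 1 of the 8 tested genes was called, where 0.258% of all 13590 genes were, and 6 of 8 were higher at an unadjusted limma p under 0.05, where 7.42% of all genes were. In young mice 0 of 8 were called (0.0662% of all genes), with Slc9b2 and Oscar, 2 of 8, higher at an unadjusted p under 0.05 (5.79%). In aged mice 0 of 8 were called (0.00% of all genes), with Ctsk, Acp5, Oscar, Slc9b2 and Atp6v0d2, 5 of 8, higher at an unadjusted p under 0.05 (4.50%). The unequal-variance test on FPKM called 0 of 8 at either age. The 3 comparisons use the same mice and are not independent of each other.

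The direction was shared more widely than the calls. The log2 difference was above 0 for 8 of 8 genes in young mice (52.2% of all genes), for 7 of 8 in aged mice (48.6%) and for 8 of 8 over both ages (50.8%). The median over the 8 genes was 0.34 in young mice, 0.55 in aged mice and 0.49 over both ages, where the medians of all tested genes were 0.01, 0.00 and 0.00. All 3 young CR mice were above all 3 young AL mice for 4 of the 8 genes (10.1% of all genes), all aged CR mice above all aged AL mice for 2 of 8 (5.70%), and both held for the same 2, Oscar and Slc9b2 (1.53%). For these 2 every CR mouse was also above every AL mouse of either age (0.846%). Most of the 8 genes rose and fell together over the same mice, so their shared direction does not count as 8 separate observations.

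Mice 5 and 14 bore on these counts. With mice 14 (aged AL) and 5 (aged CR) left out, limma called 5 of the 8 genes for diet, Acp5, Ctsk, Atp6v0d2, Oscar and Slc9b2, and 442 of all genes. With a quality weight for each mouse it called 4, Acp5, Ctsk, Oscar and Slc9b2, and 923 of all genes. The lowest weights were 0.26 for aged AL mouse 14, 0.45 for young CR mouse 3 and 0.51 for aged CR mouse 5. Young CR mouse 3, which had the highest mean deviation of the young CR mice (0.32), was kept in the fit without mice 14 and 5. With a pseudocount of 0.1 FPKM, with no filter or with size factors it called 0. Leaving out 1 mouse at a time gave 0 to 4 called genes, the 4 being those without aged CR mouse 5. Mouse 5 had the lowest mean deviation of these genes among the CR mice (-0.13). Leaving it out therefore raises the CR mean, and the added calls are no separate support for a diet difference.

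No difference between aged and young mice was detected in the set. Over both diets 0 of the 8 genes were called between aged and young mice, where 0.758% of all genes were, and 1 of 8 had a log2 difference above 0, where 44.4% of all genes did. The differences of the 8 genes ran from -0.17 for Atp6v0d2 to 0.0021 for Tnfrsf11a, the smallest limma adjusted p was 0.763, and 0 of 8 had an unadjusted p under 0.05. The exact permutation p for age, with the diets kept apart, was between 0.525 and 0.97 for all 10 genes. Most of these small differences changed sign when a mouse or a setting was changed, so no direction is given. The diet difference in aged mice set against that in young mice was called for 0 of 8 genes and for 0.00% of all genes, and 0 of 8 had an unadjusted p under 0.05. It ran from -0.19 for Tnfrsf11a to 0.55 for Atp6v0d2 on the log2 scale (SE 0.15 and 0.45, limma, adjusted p = 0.999 for both).

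Seen mouse by mouse, most of the genes moved as a group. The mean deviation of the 8 tested genes from their own means was 0.13, 0.13 and 0.32 on the log2 scale in young CR mice, against 0.01, -0.10 and -0.31 in young AL mice. It was -0.13, 0.47 and 0.29 in aged CR mice, against -0.31, -0.41 and -0.10 in aged AL mice. Aged CR mouse 6 had the highest mean deviation and aged AL mouse 14 the lowest, and aged CR mouse 5 was the 1 CR mouse below 0. For Oscar, Slc9b2 and Calcr mouse 5 remained above every AL mouse. For Ctsk, Acp5, Mmp9, Tnfrsf11a, Dcstamp, Ocstamp and Atp6v0d2 it was within the range of the AL mice.

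**Figure D3:**
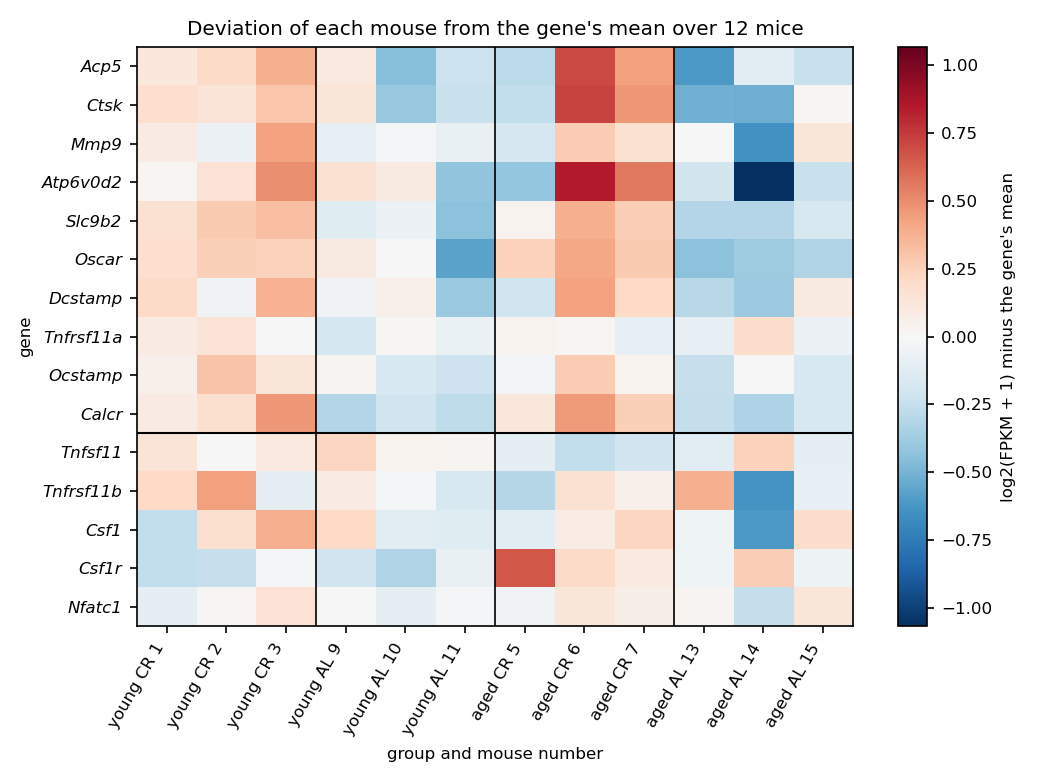
Deviation of log2(FPKM + 1) of each mouse (columns, by group and mouse number) from the gene's mean over 12 mice (colour) for the 10 genes, above the line, and for 5 regulators below it. CR columns are mostly red and AL columns mostly blue above the line, with aged CR mouse 5 as an exception for several genes, and no such division is seen below it.

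Over the 12 mice, 45 pairs could be formed from the 10 genes, and their Pearson correlation on the log2 scale had a median of 0.73. Part of this is shared with the diet groups, and after the group means were subtracted the median was 0.50. The permutations behind the p-values exchanged all 12 mice whatever their group. Those p-values therefore belong to the pooled correlations, the shared diet difference included. Ctsk and Acp5 had r = 0.92 and rho = 0.88 (permutation adjusted p = 0.00045 and 0.00416 over the 45 pairs), r = 0.85 after subtracting group means, and r = 0.96 without the 2 mice farthest from the median of Ctsk. The ratio of Acp5 to Ctsk was between 1.30 and 1.65 in 11 mice and 2.07 in aged AL mouse 14. Oscar and Slc9b2 had r = 0.94 and rho = 0.95 (permutation adjusted p = 0.00045 and 0.00135), r = 0.82 after subtracting group means and r = 0.89 without the 2 mice farthest from the median of Oscar.

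Over all 12 mice Tnfrsf11a stood apart from the rest. Its 9 correlations with the other genes lay between -0.39 and 0.43, with a median of 0.10, and the permutation adjusted p for Pearson's r was at least 0.205 in each. Without the 2 mice farthest from its median, one of them aged AL mouse 14, r was 0.69 with Ocstamp and 0.39 with Calcr. It was then 0.23 with Dcstamp and 0.14 with Atp6v0d2. For the remaining genes, with the 2 mice taken by the median of the partner gene, r ran from -0.13 for Oscar to 0.16 for Slc9b2. Mmp9 was mixed, with correlations of 0.23 with Ocstamp, 0.46 with Acp5 and Oscar, 0.81 with Dcstamp and 0.84 with Atp6v0d2. The 28 pairs among the 8 genes without Tnfrsf11a and Mmp9 had correlations of 0.54 to 0.94, with a median of 0.79, and the 8 pairs of Mmp9 with those genes had a median of 0.64. After subtracting group means the medians were 0.56 (0.20 to 0.85) for the 28 pairs and 0.54 (-0.23 to 0.83) for those of Mmp9. The 9 pairs of Tnfrsf11a then had a median of -0.30. The points of all these correlations share the same 12 mice and the same normalization.

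**Figure D4:**
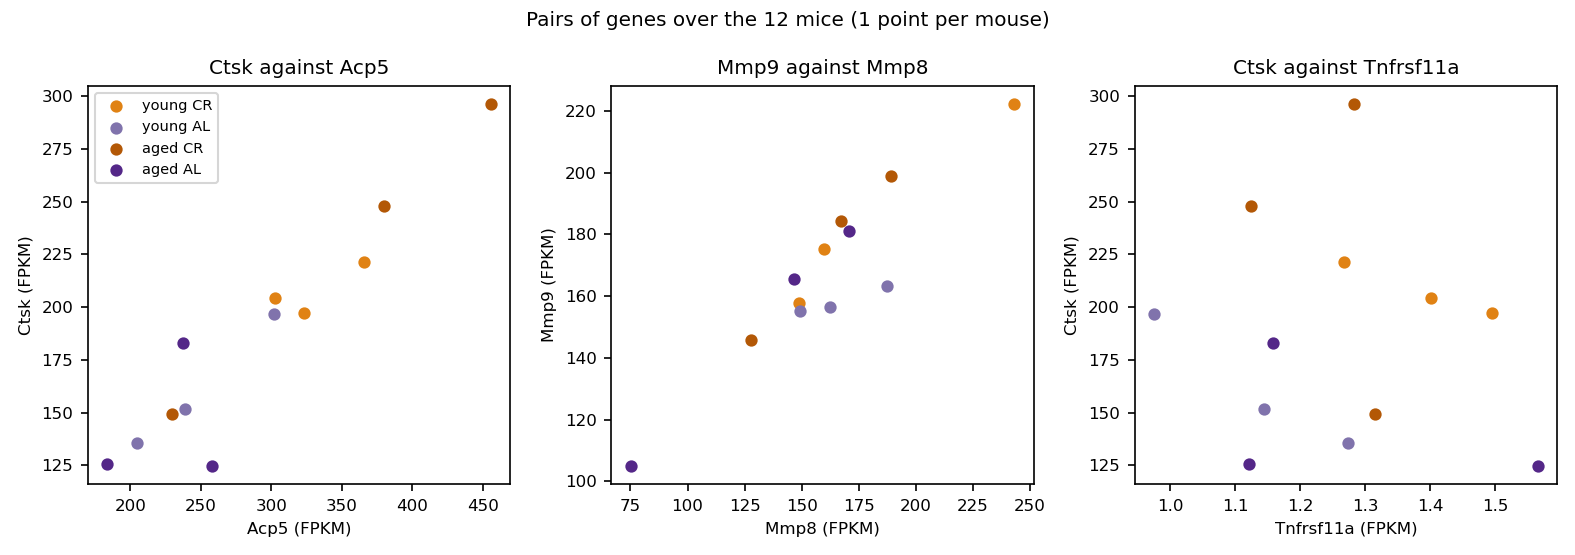
FPKM of pairs of genes in the 12 mice, with 1 point per mouse coloured by group, for Ctsk against Acp5, Mmp9 against Mmp8 and Ctsk against Tnfrsf11a. Ctsk and Acp5 lie along a line (r = 0.92 on the log2 scale), Mmp9 and Mmp8 do so with aged AL mouse 14 far below the rest, and Ctsk and Tnfrsf11a do not (r = -0.14).

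Among the genes outside the set, those whose pattern over the 12 mice was most like the mean of the 8 tested genes were Steap4 (r = 0.93), which encodes a metalloreductase, Fam198b (0.93), Ank (0.91), which encodes a membrane protein of pyrophosphate transport, Fam102a (0.91), Lrp4 (0.90), which encodes a receptor of sclerostin and agrin, Vdr (0.90), the vitamin D receptor gene, Gpnmb (0.90), which encodes the glycoprotein osteoactivin, and Pla2g7 (0.89), which encodes a phospholipase that degrades platelet-activating factor. After subtracting group means these correlations were between 0.77 and 0.94. Vdr averaged 5.04 ± 1.08 FPKM in CR mice and 2.97 ± 0.64 FPKM in AL mice (SD, n = 6 each), and Gpnmb 21.7 ± 7.40 FPKM in CR mice and 11.5 ± 5.12 FPKM in AL mice (SD, n = 6 each). Neither was called for diet (limma, adjusted p = 0.0970 and 0.212), and the 8 genes were picked as the highest of all tested, so no test is given for their likeness.

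The genes most like Mmp9 were others. Mmp8, the gene of neutrophil collagenase, came first (r = 0.95, rho = 0.81, r = 0.98 after subtracting group means), followed by Hvcn1 (0.94), which encodes a proton channel of immune cells, Arsb (0.92), which encodes a lysosomal sulfatase, Vcam1 (0.92), which encodes an adhesion molecule, and Lilra6 (0.92). None of them is among the 8 most like the set as a whole. Mmp8 was at 160, 149 and 243 FPKM in young CR mice against 149, 187 and 162 FPKM in young AL mice, and at 128, 189 and 167 FPKM in aged CR mice against 147, 75.0 and 171 FPKM in aged AL mice. Without the 2 mice farthest from its median, one of them aged AL mouse 14, the correlation of Mmp8 with Mmp9 was 0.74. The same step, by each gene's own median, gave 0.85 for Hvcn1 and 0.82 for Vcam1, so the first rank of Mmp8 was not stable. The other late neutrophil genes, S100a8 and S100a9 aside, had r with Mmp9 from 0.31 for Camp to 0.80 for Lcn2. High values were not particular to neutrophil genes. In the list of macrophage and monocyte genes r with Mmp9 was 0.92 for Vcam1 and 0.83 for Cd163, but -0.76 for Cx3cr1. In that of osteoblast and osteocyte genes it ran from -0.0025 to 0.86. Among osteoclast genes r with Mmp9 was 0.86 for Nfatc1, 0.84 for Atp6v0d2 and 0.46 for Acp5. The part of neutrophil RNA in the level of Mmp9 was not tested.

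None of the genes listed as governing osteoclast formation was called. Of 20 such genes, all tested, 0 were called in any comparison (for diet, 0.258% of all genes), and for diet over both ages their median log2 difference was 0.07 (0.00 for all genes). At an unadjusted p under 0.05, 4 of 20 were higher (7.42% of all genes) and 1 of 20 lower (6.45%). Tnfsf11, the gene of RANK ligand, was at 1.22, 1.03 and 1.17 FPKM in young CR mice against 1.36, 1.07 and 1.06 FPKM in young AL mice, and at 0.881, 0.689 and 0.750 FPKM in aged CR mice against 0.871, 1.40 and 0.892 FPKM in aged AL mice. Its groups overlapped at both ages (-0.11 on the log2 scale, SE 0.08, limma, adjusted p = 0.592). Tnfrsf11b, the gene of the decoy receptor osteoprotegerin, differed by 0.15 (adjusted p = 0.731), Csf1, the gene of the macrophage colony-stimulating factor, by 0.17 (0.655), its receptor gene Csf1r by 0.15 (0.560), and Nfatc1, the gene of the main transcription factor of osteoclast formation, by 0.07 (0.701), all for diet over both ages by limma.

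Within that list the smallest p for diet belonged to Irf8, which encodes a factor that restrains osteoclast formation in mice. Irf8 was at 29.3, 27.8 and 28.3 FPKM in young CR mice against 34.9, 31.2 and 36.3 FPKM in young AL mice, and at 30.5, 27.3 and 27.5 FPKM in aged CR mice against 33.1, 31.5 and 35.3 FPKM in aged AL mice. The difference over both ages was -0.24 on the log2 scale (SE 0.06, limma, adjusted p = 0.0970), short of the threshold. Lgr4, which encodes a second receptor of RANK ligand, differed by 0.25 (limma, adjusted p = 0.234), and Trem2, which encodes a costimulatory receptor, by 0.26 (0.319). For age, small p-values in the list were those of Csf1r (0.38, adjusted p = 0.127), Fos, a component of AP-1, (-0.46, 0.260) and Prdm1, the gene of the repressor Blimp1, (0.27, 0.273).

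The acid-secreting and attachment machinery was likewise not called. Of 20 genes, 19 were tested and 0 were called in any comparison (for diet, 0.258% of all genes). For diet over both ages 15 of 19 differences were above 0 (50.8% of all genes), with a median of 0.11 (0.00 for all genes), and at an unadjusted p under 0.05, 4 of 19 were higher (7.42%) and 0 lower (6.45%). Most of these genes, such as the proton pump subunits, are used by many cell types. Ckb, which encodes the brain-type creatine kinase that supplies ATP in osteoclasts, was at 51.3, 57.9 and 44.5 FPKM in young CR mice against 45.1, 32.6 and 34.0 FPKM in young AL mice, and at 41.5, 55.4 and 48.9 FPKM in aged CR mice against 33.2, 40.0 and 38.3 FPKM in aged AL mice (0.41, SE 0.11, limma, adjusted p = 0.112). Rufy4, which encodes a protein of autophagy and lysosome positioning, differed by 0.42 (adjusted p = 0.148), Src, whose kinase shapes the sealing zone, by 0.28 (0.348), and Snx10, which encodes a sorting protein, by 0.15 (0.359). For age, Itgb3, which encodes the beta chain of the vitronectin receptor and is also made by platelets and megakaryocytes, was higher in aged mice by 0.70 (adjusted p = 0.0552), and Src by 0.44 (0.131), Ostm1, which encodes the partner of the chloride antiporter, by 0.16 (0.175) and Clcn7, which encodes that antiporter, by 0.23 (0.231).

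**Figure D5:**
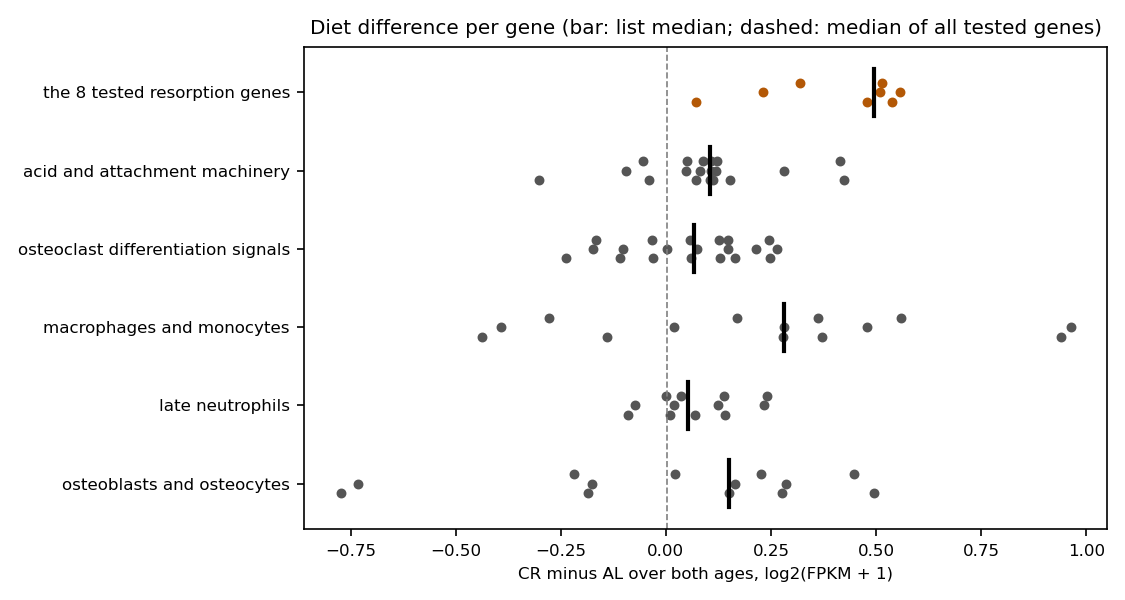
Difference in log2(FPKM + 1) between CR and AL mice over both ages (horizontal axis) for each tested gene of 6 lists (rows), with the list median as a bar and the median of all tested genes as a dashed line. The median is 0.49 for the 8 tested resorption genes, 0.11 for the acid and attachment genes and 0.07 for the differentiation signals.

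Among markers of other cells, adipocyte genes were called for diet. Of 7 tested adipocyte genes 4 were called higher in CR mice (0.258% of all genes), and the 8 listed summed to 212 to 358 FPKM in young CR, 91.6 to 117 FPKM in young AL, 241 to 467 FPKM in aged CR and 74.3 to 231 FPKM in aged AL mice. Of 8 B cell genes 0 were called, but all 8 had a diet difference below 0, with a median of -0.50 on the log2 scale, and 4 of 8 were lower at an unadjusted p under 0.05 (6.45%). Their sum was 139 to 168 FPKM in young CR, 223 to 272 FPKM in young AL, 115 to 156 FPKM in aged CR and 80.2 to 267 FPKM in aged AL mice. Of 14 macrophage and monocyte genes 0 were called for diet, but at an unadjusted p under 0.05 Cd68, Mrc1, Vcam1 and Cd163, 4 of 14, were higher in CR mice (7.42% of all genes) and Ccr2 and Cx3cr1, 2 of 14, lower (6.45%). Their summed level was 1144 to 1272 FPKM in young CR mice and 1042 to 1244 FPKM in young AL mice, and 1304 to 2048 FPKM in aged CR mice and 1157 to 1605 FPKM in aged AL mice. Of 12 late neutrophil genes 0 were called. S100a9 and S100a8 carry 1 value each, 17557.6 FPKM in 11 of 12 mice and 15154.3 FPKM in 10 of 12, and the list without them summed to 12777 to 16235 FPKM in young CR, 10314 to 14853 FPKM in young AL, 7777 to 10811 FPKM in aged CR and 6411 to 12030 FPKM in aged AL mice. The 13 osteoblast and osteocyte genes had 0 called and summed to 1439 to 1873 FPKM in young CR, 2117 to 2953 FPKM in young AL, 1225 to 1665 FPKM in aged CR and 805 to 2396 FPKM in aged AL mice. No gene of these 5 lists was at 0 in all mice of a group. Their part in the levels of the osteoclast genes was not tested.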

How the data were processed

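RNA of whole tibiae was sequenced by the authors with 4 technical repeats per mouse. The deposited table holds 1 FPKM column per mouse, which the authors computed with StringTie (2.1.3b) after trimming with Trim Galore (0.5.0) and alignment with STAR (2.6.1) to the mouse genome and then quantile normalized. How the repeats were combined, the annotation release and whether strand, which the library kit keeps, was used are not given in the sources used here. Quantile normalization fixes each mouse's distribution, so sequencing depth is unknown and a change of the total cannot be seen.

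Values were put on the log2(FPKM + 1) scale, genes whose mean over all mice reached 1 FPKM were kept, whatever the group, and 1 model with 4 group means was fitted to all genes with limma (3.58.1, R 4.3.3, trended prior), with Benjamini-Hochberg adjustment over the 13590 genes and a threshold of 0.05. The 5 comparisons were the diet difference (CR minus AL) in young mice, in aged mice and over both ages, aged against young over both diets, and the difference of the 2 diet effects. The script was tested on simulated data. Each gene of the set was also tested by exact two-sided permutation within strata. Mice, caged singly, are the replicates, 3 per group, and p-values measure the spread between these mice.

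The genes and lists were chosen with earlier results of these data known. Genes named beyond the set are RANK ligand, osteoprotegerin, Csf1, Csf1r and Nfatc1, from the 2 osteoclast lists every called gene and up to 4 more with the smallest p for diet and for age, from marker lists up to 3 each, here extended for macrophages to those with an unadjusted p under 0.05, and the 8 (for Mmp9, 5) genes with the highest r. A gene that this rule would name is not reported here. Coordinates are from GENCODE M21 on GRCm38, matched by gene identifier. Growth plate, early neutrophil, muscle and erythroid lists were also counted: growth plate genes had 5 of 7 tested called lower with age (0.758% of all genes were called), and the other 3 lists had 0 called in any comparison.

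Alternatives were another pseudocount and filter, size factors, quality weights, a fit of only the groups compared, the unequal-variance test that the study used, on FPKM, and leaving out mice.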

Additional observations from a re-analysis of the deposited data

How the results depend on the processing

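With 3 mice per group and depth unknown, the diet differences of the osteoclast genes depended on few mice; differences near 0 carry no direction, and the fragments behind the low levels of Calcr and Ocstamp are unknown in number. No paired analysis was possible because the numbers that groups share in the labels mark technical repeats, each mouse has its own number, and the labels do not say which CR and AL mice, if any, were littermates. The diet difference over both ages stayed above 0 in the alternatives run for each gene, which were 18 for Ctsk, Acp5, Mmp9 and Atp6v0d2, 17 for Oscar, Slc9b2, Tnfrsf11a and Dcstamp, and 15 permutation alternatives for Calcr and Ocstamp. The causes of the changes below were not tested.

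Genes called in young mice, 9 in all, were 5 with no filter, 304 with quality weights, 74 with only the 2 groups, 0 with the unequal-variance test, 161 without mice 14 (aged AL) and 5 (aged CR), and 0 to 43 with 1 mouse left out. In aged mice the 0 became 1, 193 and 49 with no filter, with quality weights and without both mice, and 0 to 7 with 1 mouse left out. For diet over both ages the 35 became 9, 923 and 442 with the same 3 changes, and 8 to 223 with 1 mouse left out. For age the 103 became 44 with no filter, 10 with a filter at 5 FPKM, 1798 with quality weights, 219 without both mice and 21 to 219 with 1 mouse left out, and the interaction had 1 with quality weights, 1 without both mice and 0 to 1 with 1 mouse left out. Of the osteoclast genes, the 1 called for diet became 0 with a pseudocount of 0.1 FPKM, no filter, a filter at 5 FPKM (which removed Slc9b2) or size factors, 4 with quality weights, 5 without both mice, and 0 to 4 with 1 mouse left out. In aged mice alone, quality weights called 4.

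Signs changed for the following differences, none of which passed the test. In aged mice Tnfrsf11a was at 0.030 with quality weights, 0.041 without both mice and -0.072 to 0.065 with 1 mouse left out. For age, quality weights gave 0.0095 for Ctsk, 0.054 for Mmp9, -0.068 for Tnfrsf11a and 0.11 for Atp6v0d2. Without both mice the age difference, the same in the permutation test, was 0.16 for Ctsk, 0.052 for Acp5, 0.096 for Mmp9, 0.016 for Slc9b2, -0.054 for Tnfrsf11a, 0.084 for Dcstamp and 0.16 for Atp6v0d2. With 1 mouse left out it was -0.14 to 0.11 for Ctsk, -0.14 to 0.10 for Acp5, -0.16 to 0.031 for Mmp9, -0.10 to 0.0043 for Slc9b2, -0.042 to 0.027 for Tnfrsf11a, -0.13 to 0.037 for Dcstamp, -0.30 to 0.017 for Atp6v0d2 and -0.018 to 0.081 for Calcr. The difference of the diet effects was -0.064 for Mmp9 without both mice, and with 1 mouse left out -0.028 to 0.47 for Acp5, -0.20 to 0.20 for Mmp9, -0.049 to 0.14 for Slc9b2 and -0.11 to 0.21 for Dcstamp.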

Other observations

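Ratios between genes within a mouse gave a further description of the set, with no test. Calcr per 1000 FPKM of Ctsk was 2.32, 2.85 and 4.103 FPKM in young CR mice against 0.610, 1.44 and 0.976 FPKM in young AL mice, and 3.41, 3.03 and 2.66 FPKM in aged CR mice against 1.33, 0.833 and 1.25 FPKM in aged AL mice. Every CR mouse was above every AL mouse, mouse 5 included, as in the levels of Calcr alone, so the ratio adds no separate evidence. How many other gene ratios separate the diets was not counted. The ratio of Tnfsf11 to Tnfrsf11b, the ligand gene over that of its decoy receptor, was 0.509, 0.345 and 0.672 in young CR mice against 0.641, 0.559 and 0.654 in young AL mice, and 0.636, 0.301 and 0.366 in aged CR mice against 0.309, 1.57 and 0.505 in aged AL mice. The highest value belonged to aged AL mouse 14, and the groups overlapped at both ages.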
